A study of Mus musculus with 26 samples.

Results

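RNA polymerase II (Pol II) was compared over mouse gene bodies in liver at 8 h and at 0 h after partial hepatectomy, with 1 ChIP-seq library at each time. A gene was described when its Pol II signal per base pair, scaled between libraries, was above 0.5 at 8 h or at 0 h. This took in 4518 genes, or 21.6% of the 20933 genes measured among 31804 gene entries. The choice used the level at either time, so every described gene had signal in at least 1 of the libraries. At the edge of the choice, Wdr45 was just inside with 0.161 at 8 h and 0.50003 at 0 h, and Nhlrc3 was just outside with 0.4999 at 8 h and 0.0229 at 0 h.

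Chromatin immunoprecipitation followed by sequencing (ChIP-seq) recovers the DNA that a protein is bound to. The 8 h library came from livers left to regenerate for 8 h, and the 0 h library from the lobes taken out at surgery, which removed 3 of the 5 liver lobes. All animals were wild-type male C57BL6/J mice, an inbred laboratory strain, aged 7 weeks, with livers of 5 mice at each time. The labels do not say whether these were pooled before sequencing, and they name no sham-operated group. So 8 h differs from 0 h in the surgery, the time after it and whatever else passed in those hours. It also differs in the lobes sampled, and these differences cannot be told apart. The other Pol II libraries of the series, at 3, 16, 24, 36, 48 and 168 h, are used here for scaling and to show where a level at 8 h lay. Files of the transcription factors C/EBPalpha and C/EBPbeta at 8 h and 0 h are used for the regions near gene starts. Depth is unknown, since the files give no read counts, and positions are in the mouse build mm9 unless another build is named.

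Pol II transcribes protein-coding genes, and its amount over a gene body follows how many polymerases are on the gene at the time of fixation. After partial hepatectomy, the remaining hepatocytes leave quiescence, pass through G1 and enter DNA synthesis later. Cytokines such as IL-6, which acts through the transcription factor STAT3, prime them in the first hours, and the same signal switches on the acute phase response, in which the liver secretes plasma proteins of inflammation. C/EBPalpha is a hepatocyte factor that restrains proliferation, and C/EBPbeta is a relative that is active in the acute phase and in growth.

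Of the 4518 described genes, 690 were higher at 8 h and 1001 were lower, where higher and lower mean a change of at least 1 on the log2 scale, a doubling or a halving of signal plus 0.5. The share called was 15.3% for higher and 22.2% for lower, and every list of genes below is to be read against these shares. The remaining 2827 genes were neither. With 1 library at each time there is no test, no error of a change and no replicate check, so a call is a size of difference between these libraries. Changes of 2 or more were seen in 133 higher and 175 lower genes, and changes of 3 or more in 33 and 31. The median change was -0.19, and the central 90% of changes lay between -1.83 and 1.63. Changes are relative to the 1472 genes used for scaling. Without the rescaling, changes move down by 0.33 for genes far above 0.5, the median becomes -0.47, and the calls become 554 higher and 1390 lower. Higher genes were then 28.5% of calls, against 40.8% with it. Because the tissue is whole liver, fewer cells of a type and less Pol II per cell cannot be told apart.

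Many calls came from genes with no signal on one side. The signal is net of a background, and it was below 0 in 55.6% of measured genes at 8 h and in 59.1% at 0 h. Of the 690 higher genes, 301 were at or below 0 at 0 h, and of the 1001 lower genes, 424 were at or below 0 at 8 h. A fold is given below only where both values are above 0. Of all 8 Pol II libraries, the one at 0 h stood apart for these genes. It was the lowest of the 8 for 487 of the 690 higher genes and the highest for 877 of the 1001 lower genes. The 8 h library was the highest of the 8 for 30 higher genes and the lowest for 14 lower genes. These genes were chosen for their difference from 0 h, which by itself favours 0 h being the extreme. Of the 2827 described genes called neither way, 0 h was the lowest of the 8 for 281 and the highest for 523. Every change given here rests on that single 0 h library. The median signal of described genes was 0.961 at 8 h and 1.095 at 0 h, and 479 genes lay within 0.1 of the call, with changes between 0.9 and 1.1 in size.

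**Figure D1:**
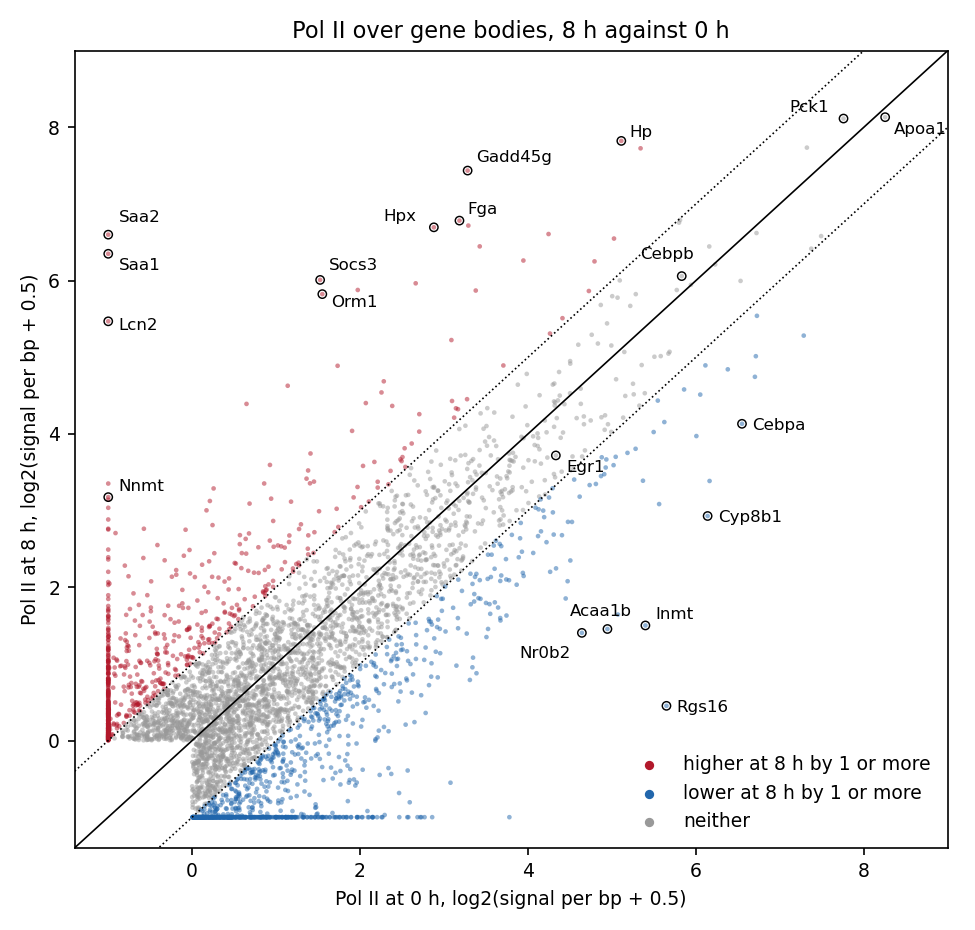
Each point is 1 of the 4518 described genes, with log2(signal per bp + 0.5) at 0 h on the x axis and at 8 h on the y axis, so 8 h is higher above the solid diagonal; dotted lines mark changes of 1 and -1, and values below 0 are set to 0 and lie on the edges at -1. Saa2, Saa1, Lcn2 and Nnmt stand on the left edge far above the diagonal, and Rgs16, Inmt and Cyp8b1 lie far below it.

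Calls moved with gene length. Among the 241 described genes with a measured body of 500 to 1000 bp, 19.1% were higher and 50.2% lower at 8 h, and their median change was -1.004. Among the 212 genes of 50 kb or more, 20.8% were higher and 6.60% lower, with a median change of 0.20. Lower calls thus became less frequent in each longer class, while higher calls did not follow length in 1 direction. The median measured body was 5912 bp for higher genes, 3811 bp for lower genes and 9439 bp for genes that were neither. The part of gene length in any single result was not tested.

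**Figure D2:**
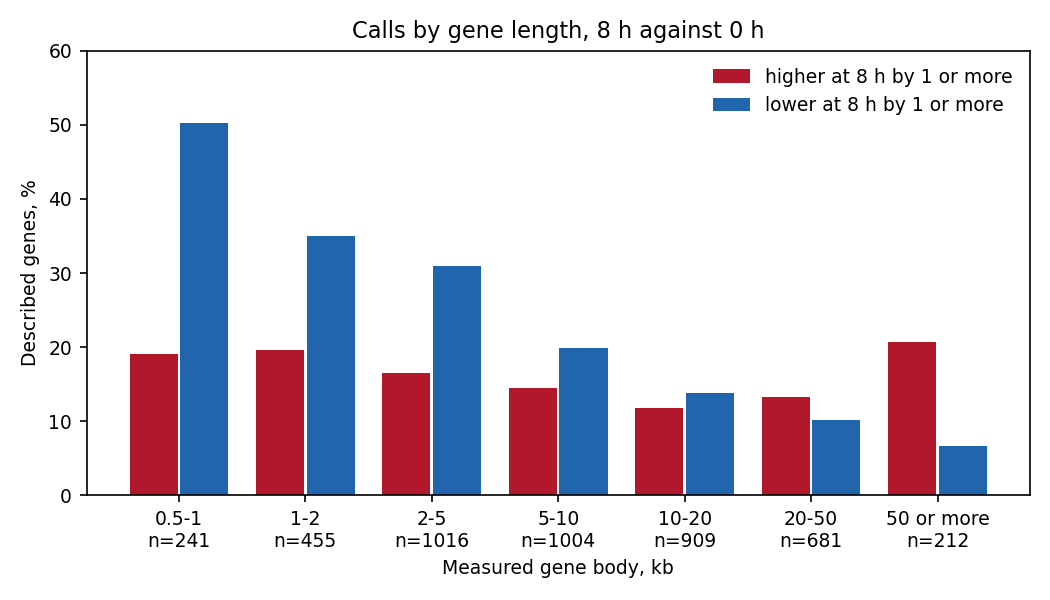
Bars give the percentage of described genes that were higher (red, left) or lower (blue, right) at 8 h by 1 or more on the log2 scale, by the length of the measured gene body in kb, with the number of genes under each class. Lower calls make up 50.2% of the shortest class and 6.60% of the longest.

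The acute phase genes stood highest. Of 30 listed secreted acute phase proteins and their partners, 27 were measured and 24 described, and 22 of the 24 were higher at 8 h, none was lower, and the median change was 2.93, against -0.19 over all described genes. Saa2 and Saa1 encode serum amyloid A, the apolipoprotein that replaces others on lipoproteins in inflammation. Saa2, measured at chr7:54008151-54009682, had a signal of 96.5 at 8 h and -0.359 at 0 h, a change of 7.60. Saa1, at chr7:53995869-53997850, had 81.1 at 8 h and -0.927 at 0 h, a change of 7.35. Both were thus below 0 in the resected lobes and among the stronger genes at 8 h. Their sequences are alike, so reads could have been split between them. Lcn2, which encodes the iron-siderophore binding protein lipocalin 2, had 43.8 at 8 h and -1.26 at 0 h, a change of 6.47. Orm1, which encodes orosomucoid, had 56.2 at 8 h and 2.43 at 0 h, 23.1-fold. Among protease inhibitors and matrix binding proteins, Serpina3n had 58.3 at 8 h and 3.43 at 0 h, and Itih3 had 20.5 at 8 h and 1.07 at 0 h.

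Iron and haem carriers of the acute phase were part of this. Hp encodes haptoglobin, which clears free haemoglobin, and it had the third highest signal of the named genes at 8 h, with 226 at 8 h and 34.1 at 0 h. Hpx encodes hemopexin, which carries haem, and had 103 at 8 h and 6.86 at 0 h, 15.05-fold. Cp, which encodes the ferroxidase ceruloplasmin, was much weaker at both times, with 2.83 at 8 h and 0.211 at 0 h. Steap4, a metalloreductase gene, had 8.32 at 8 h and -0.113 at 0 h. In contrast, Hamp1, the gene of the iron hormone hepcidin, had 50.4 at 8 h and 36.8 at 0 h, and with Orm3, at 1.87 at 8 h and 1.25 at 0 h, it was 1 of the 2 described list members that did not reach the call.

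The 3 fibrinogen chain genes lie next to each other on chromosome 3, and all were higher to a similar degree. Fga had 109.7 at 8 h and 8.59 at 0 h, 12.8-fold. Fgb had 86.8 at 8 h and 10.2 at 0 h, 8.47-fold, from the opposite strand. Fgg had 105 at 8 h and 9.28 at 0 h, 11.3-fold. Promoter sequences are shown for genes whose Pol II was far higher at 8 h (both Saa genes, the fibrinogen trio and Socs3) and for Rgs16, where it was far lower. They are RefSeq windows of GRCm38.p6, 5′ to 3′, from 250 bases before the start to 50 after it. Capitals mark matches, on either strand, to the C/EBP motif TTGCNNAA or the STAT motif TTCNNNGAA.
Saa2 (chr7:46751583-46751882, plus strand): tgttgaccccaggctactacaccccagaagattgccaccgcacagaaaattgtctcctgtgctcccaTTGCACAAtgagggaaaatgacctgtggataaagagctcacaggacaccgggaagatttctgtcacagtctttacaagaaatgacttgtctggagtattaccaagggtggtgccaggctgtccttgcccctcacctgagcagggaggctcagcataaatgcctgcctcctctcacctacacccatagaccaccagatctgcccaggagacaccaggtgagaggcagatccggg
Saa1 (chr7:46742931-46743230, minus strand): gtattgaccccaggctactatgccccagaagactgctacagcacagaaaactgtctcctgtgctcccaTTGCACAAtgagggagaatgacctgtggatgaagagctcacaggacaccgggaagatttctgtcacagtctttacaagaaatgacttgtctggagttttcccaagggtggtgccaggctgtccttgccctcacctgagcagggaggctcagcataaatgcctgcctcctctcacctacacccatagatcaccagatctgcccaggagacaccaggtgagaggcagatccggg
Fga (chr3:83025903-83026202, plus strand): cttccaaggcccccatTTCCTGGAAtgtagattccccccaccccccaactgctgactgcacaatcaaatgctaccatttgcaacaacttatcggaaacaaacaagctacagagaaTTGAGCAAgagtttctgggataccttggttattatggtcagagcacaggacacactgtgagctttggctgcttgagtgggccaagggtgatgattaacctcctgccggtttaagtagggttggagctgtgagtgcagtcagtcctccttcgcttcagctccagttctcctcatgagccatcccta
Fgb (chr3:83049814-83050113, minus strand): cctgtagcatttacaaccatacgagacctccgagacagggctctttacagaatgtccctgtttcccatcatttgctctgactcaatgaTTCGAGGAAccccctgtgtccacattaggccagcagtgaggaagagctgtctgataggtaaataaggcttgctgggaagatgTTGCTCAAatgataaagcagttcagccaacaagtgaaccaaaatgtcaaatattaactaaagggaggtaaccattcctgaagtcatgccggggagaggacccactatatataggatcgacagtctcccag
Fgg (chr3:83007474-83007773, plus strand): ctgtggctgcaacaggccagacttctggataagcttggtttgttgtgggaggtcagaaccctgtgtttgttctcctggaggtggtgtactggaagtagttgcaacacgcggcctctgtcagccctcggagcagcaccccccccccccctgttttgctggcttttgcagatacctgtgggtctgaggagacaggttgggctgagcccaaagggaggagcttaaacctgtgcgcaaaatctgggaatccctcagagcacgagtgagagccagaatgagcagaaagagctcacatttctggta
Socs3 (chr11:117969317-117969616, minus strand): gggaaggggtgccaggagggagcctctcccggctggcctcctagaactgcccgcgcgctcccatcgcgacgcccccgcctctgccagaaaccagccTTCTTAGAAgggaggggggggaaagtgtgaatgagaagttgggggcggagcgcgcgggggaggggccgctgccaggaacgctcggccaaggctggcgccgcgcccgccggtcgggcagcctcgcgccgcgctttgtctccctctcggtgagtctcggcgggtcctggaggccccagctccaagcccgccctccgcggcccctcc
Rgs16 (chr1:153740103-153740402, plus strand): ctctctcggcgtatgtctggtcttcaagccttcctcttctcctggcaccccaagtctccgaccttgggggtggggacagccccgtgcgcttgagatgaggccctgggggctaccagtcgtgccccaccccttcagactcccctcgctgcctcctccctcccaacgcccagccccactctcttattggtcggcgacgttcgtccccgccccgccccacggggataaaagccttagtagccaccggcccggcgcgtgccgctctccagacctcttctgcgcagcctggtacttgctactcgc

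Both Saa windows hold the same 8 letters of the C/EBP motif at nearly the same place, starting at -183 in Saa2 and -182 in Saa1 relative to the gene start. Fga and Fgb each hold 1 match to each motif, with the C/EBP match at -135 in Fga and -80 in Fgb. Fgg and Rgs16 hold neither in these windows, and Socs3 holds the STAT motif alone, at -154. Of the 15 named genes with the largest changes, 13 have a window in the table, and 6 of these 13 hold the C/EBP motif. Of the 15 with the most negative changes, 13 have one, and 0 of these hold it. Over all 27025 promoters, 10.8% hold the C/EBP motif and 8.47% the STAT motif, which was in 3 of 13 and 1 of 13 of the same groups. A match describes the letters only. Since 74.9% of described genes have a window, motif shares over the 690 and 1001 genes are not given.

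Genes of the IL-6 and STAT3 pathway itself were called on both sides. Of 21 measured, 13 were described, 5 of them higher and 1 lower, with a median of 0.66. Socs3, the feedback inhibitor of the pathway and itself a STAT3 target, had 63.9 at 8 h and 2.38 at 0 h, 26.9-fold. Stat3 had 1.81 at 8 h and 0.303 at 0 h, and Il1r1, the receptor of interleukin 1, had 3.98 at 8 h and 0.377 at 0 h. Bcl3, a nuclear partner of NF-kB, had 11.5 at 8 h and 3.60 at 0 h. The receptor genes Il6ra and Il6st lay under the call, with 1.86 at 8 h and 3.17 at 0 h for Il6ra and 1.12 at 8 h and 0.522 at 0 h for Il6st. Pim1, a kinase gene that STAT proteins can switch on, was the lower one, with 4.05 at 8 h and 14.8 at 0 h.

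In the list of NF-kB feedback genes and chemokines, 12 of 19 measured members were described, 3 higher and 1 lower. Cxcl1, a neutrophil-attracting chemokine gene, had 29.1 at 8 h and 2.82 at 0 h, 10.3-fold. Cxcl10, an interferon-induced chemokine gene, went the other way, with -0.334 at 8 h and 3.58 at 0 h. Tifa, an adaptor that leads to NF-kB activation, had 6.03 at 8 h and 0.0310 at 0 h. It was among the 15 largest changes, next to 7.71 at 8 h and -0.0322 at 0 h for Ddx28, a mitochondrial RNA helicase gene, and 6.29 at 8 h and -0.231 at 0 h for Wdr38. Wdr38 overlaps the ribosomal protein gene Rpl35, and ChIP carries no strand, so signal of overlapping genes cannot be told apart.

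Complement genes, which encode a plasma cascade against microbes, were often higher: 9 of 16 described members (of 19 measured), with 1 lower and a median of 1.08. C3, the central component, had 58.0 at 8 h and 9.90 at 0 h, 5.86-fold. C4bp, an inhibitor of the classical pathway, had 4.60 at 8 h and 0.297 at 0 h. Mbl1, a lectin that starts the cascade, had 5.24 at 8 h and 1.23 at 0 h, while the related Mbl2 had 1.93 at 8 h and 1.71 at 0 h. Among components of the membrane attack complex, C9 had 0.634 at 8 h and -0.116 at 0 h, and C8g was the 1 lower gene of the list, with 1.16 at 8 h and 4.37 at 0 h. These are long genes as a group, with a median body of 32025 bp, and of all described genes of 20000 to 50000 bp 13.2% were higher.

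Of the coagulation and fibrinolysis genes, 18 of 21 measured were described, 5 higher and 1 lower. Cpb2, which slows fibrinolysis, had 1.80 at 8 h and -0.0586 at 0 h, and the kininogen gene Kng1 had 5.29 at 8 h and 1.59 at 0 h. Clotting factor genes such as F2, with 10.9 at 8 h and 6.52 at 0 h, and F7, with 1.58 at 8 h and 2.24 at 0 h, were not called. The lower one was Hgfac, the activator of hepatocyte growth factor, with 1.58 at 8 h and 4.69 at 0 h. The list's median of 0.26 turns to -0.04 without rescaling, so it gives no direction.

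**Figure D3:**
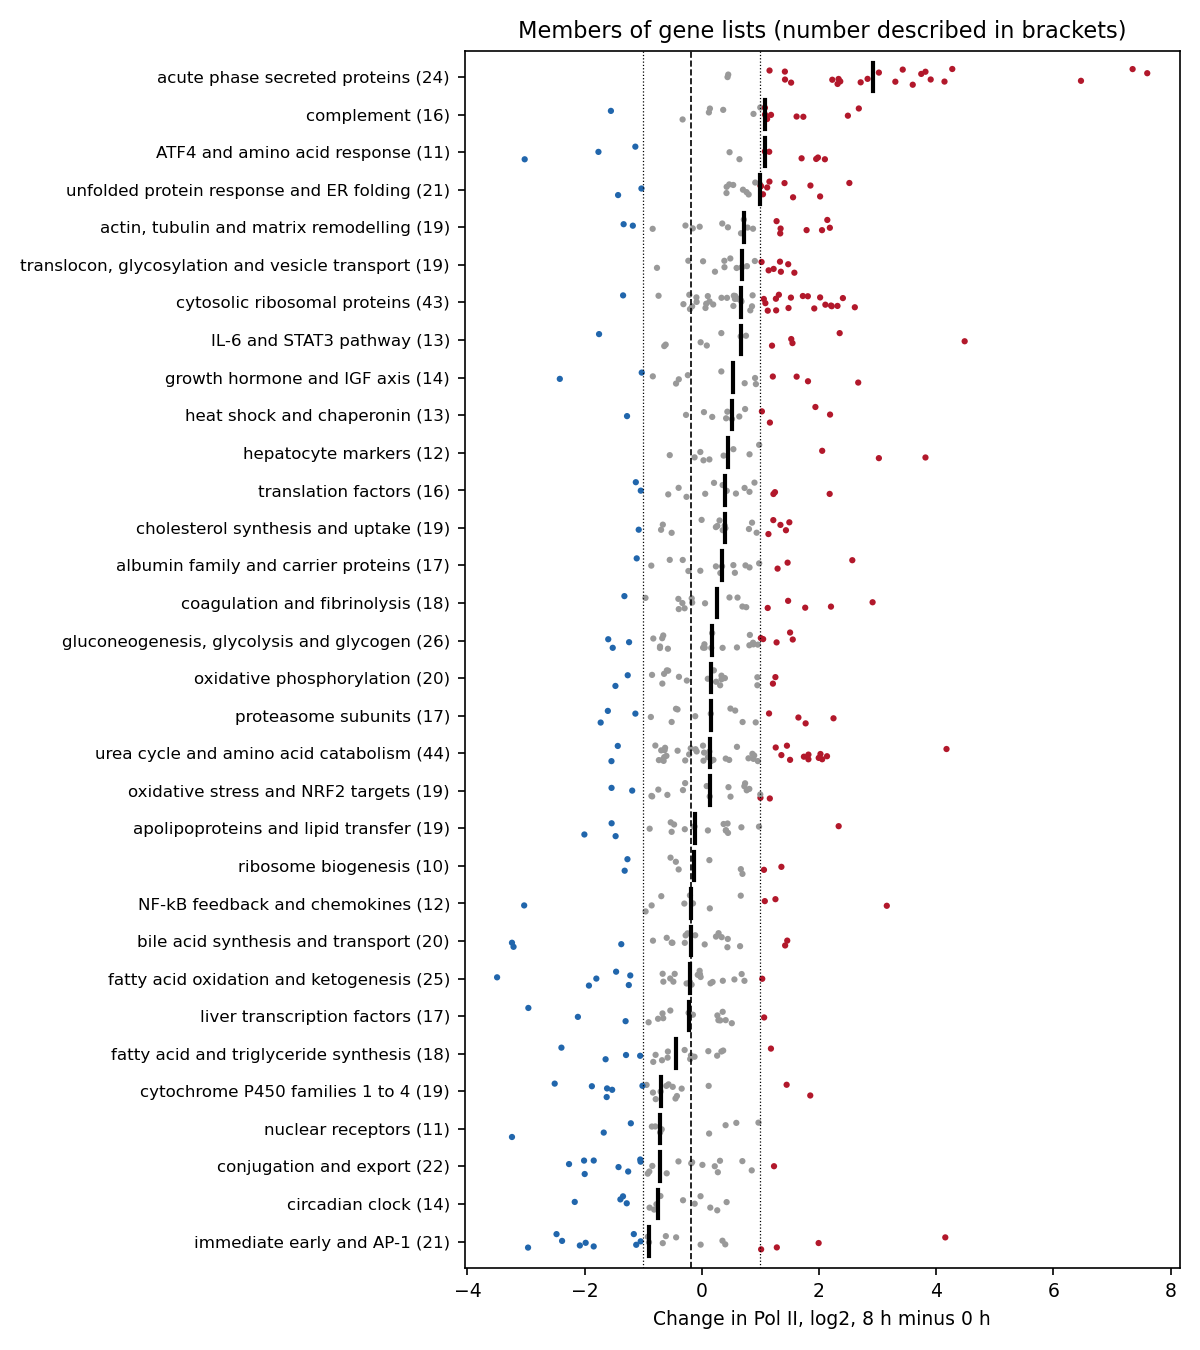
Each point is a described member of a gene list, placed by its log2 change in Pol II (8 h minus 0 h), red where higher and blue where lower by 1 or more; black bars are list medians, the dashed line is the median of all described genes (-0.19), and lists with 10 or more described members are shown. Acute phase genes have the highest median, 2.93, and immediate early genes the lowest, -0.90.

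Genes of protein folding and export in the endoplasmic reticulum (ER) were more often higher than lower. In the unfolded protein response list, 21 of 24 measured members were described, 10 higher and 2 lower, with a median of 0.99. Without rescaling the number higher is 5 of 20 and the median 0.70. Creld2, an ER chaperone-like gene, had 5.10 at 8 h and 0.478 at 0 h, 10.7-fold. Hspa5, which encodes the chaperone BiP, had 10.96 at 8 h and 4.65 at 0 h, and Hsp90b1, the ER form of HSP90, had 5.27 at 8 h and 1.46 at 0 h. Armet, the older name of the secreted ER stress protein gene Manf, had 4.95 at 8 h and 1.01 at 0 h. Xbp1, a transcription factor of this response, had 24.5 at 8 h and 14.2 at 0 h, under the call. Herpud1, a component of ER-associated degradation, was lower, with 11.6 at 8 h and 32.0 at 0 h, and so was Dnajb9, with 0.803 at 8 h and 2.16 at 0 h.

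The machinery that moves proteins into and out of the ER showed the same side of 0 at lower levels. In this list 19 of 37 measured members were described, 7 higher and none lower, with a median of 0.68. Sec61a1, the channel subunit of the translocon, had 2.298 at 8 h and 0.879 at 0 h. Lman1, a cargo receptor for glycoproteins, had 1.34 at 8 h and 0.229 at 0 h, and the translocon-associated Ssr3 had 0.774 at 8 h and -0.205 at 0 h. All 3 were below 1 at 0 h, so these changes rest on weak signal.

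Genes of the ATF4 response to amino acid shortage split. Of 20 measured, 11 were described, 6 higher and 3 lower, with a median of 1.08. Atf4 itself had 20.1 at 8 h and 4.72 at 0 h, 4.26-fold, and its relative Atf5 had 3.89 at 8 h and 0.522 at 0 h. Ddit4, which restrains the growth kinase mTORC1, had 9.74 at 8 h and 2.15 at 0 h. The amino acid transporter gene Slc38a2 had 12.02 at 8 h and 5.14 at 0 h. On the other side, Trib3, a pseudokinase gene that ATF4 switches on, had -0.137 at 8 h and 3.56 at 0 h, and Shmt2, an enzyme of mitochondrial one-carbon metabolism, had 2.93 at 8 h and 11.2 at 0 h. Of the 8 described aminoacyl-tRNA synthetase genes, which charge tRNAs, none was called.

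Cytosolic ribosomal protein genes were higher in 18 of 43 described members (of 44 measured), with 1 lower and a median of 0.68. Rpl13a had 8.02 at 8 h and 1.11 at 0 h, 7.25-fold, and Rps9 had 4.03 at 8 h and 0.482 at 0 h. Rps15 had 2.56 at 8 h and -0.440 at 0 h. Others were level, such as Rps2 with 4.21 at 8 h and 3.97 at 0 h and Rpl10a with 7.55 at 8 h and 8.52 at 0 h, and Rplp1 was the lower one, with 2.35 at 8 h and 6.74 at 0 h. These are short genes, with a median body of 2318 bp, and among all described genes of 2000 to 5000 bp 16.5% were higher and 30.9% lower. Processed pseudogenes resemble these genes, so reads could be shared with them. Translation factors were mixed, with 3 higher and 2 lower of 16 described. Eef2, the elongation factor that moves the ribosome, had 8.52 at 8 h and 3.29 at 0 h, and Eif1, a factor of start codon choice, had 5.92 at 8 h and 13.5 at 0 h. Ribosome assembly genes were mostly under the signal limit: 10 of 34 measured were described, 2 higher and 2 lower.

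Cytoskeleton and matrix genes included 7 higher and 2 lower among 19 described of 30 measured, with a median of 0.72. Fn1, which encodes the matrix and plasma protein fibronectin, had 11 at 8 h and 2.11 at 0 h, 5.23-fold. Mmp14, a membrane-bound matrix protease gene, had 2.09 at 8 h and 0.125 at 0 h, and Myh9, a non-muscle myosin gene, had 2.02 at 8 h and 0.0535 at 0 h. Tubb5, a beta-tubulin gene, had 4.46 at 8 h and 0.934 at 0 h, whereas its relative Tubb2a had 1.55 at 8 h and 4.67 at 0 h. Actb had 4.195 at 8 h and 7.89 at 0 h, so actin and tubulin genes did not move as 1 group.

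Immediate early genes, the first to respond to growth signals, were more often lower than higher at 8 h. Of 28 measured, 21 were described, 4 higher and 9 lower, with a median of -0.90. Of all described genes, 15.3% were higher and 22.2% lower, and lower calls were more frequent among shorter genes. The part of gene length in this list was not tested. The AP-1 subunit genes differed: Jun had 7.99 at 8 h and 46.8 at 0 h, 5.86-fold lower at 8 h, and Jund had 9.98 at 8 h and 40.9 at 0 h, while Junb had 73.6 at 8 h and 74.6 at 0 h. Fosl2 was higher, with 2.68 at 8 h and 0.809 at 0 h. Maff, a small Maf factor gene, had -0.313 at 8 h and 3.40 at 0 h, and Dusp6, which switches off ERK kinases, had 1.44 at 8 h and 9.62 at 0 h. Myc, a growth regulator, was weak at both times, with 2.05 at 8 h and 1.499 at 0 h.

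Within that list the Gadd45 family, whose members are stress sensors, parted. Gadd45g had 173 at 8 h and 9.22 at 0 h, 18.7-fold, and was among the 10 genes with the highest signal at 8 h. Gadd45a had 1.51 at 8 h and 6.72 at 0 h, and Gadd45b had 0.199 at 8 h and 2.46 at 0 h. Of 16 measured growth arrest and p53 target genes 9 were described, 1 higher and 4 lower. Btg1, an antiproliferative gene, was lower with 1.25 at 8 h and 5.36 at 0 h, while its relative Btg2 had 4.38 at 8 h and 1.92 at 0 h, a change of 1.01 that falls to 0.74 without rescaling. Genes of DNA replication and mitosis were mostly without signal. Of 32 measured G1/S and replication genes 6 were described, with none higher and 1 lower, and of 24 mitosis genes 2 were described and none called. Ccnd1, which encodes the cyclin D1 of G1, had 2.61 at 8 h and 3.28 at 0 h.

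Receptors and binding proteins of growth factors included large differences. Egfr, which binds EGF and other growth factors that act on hepatocytes, had 11.6 at 8 h and 1.401 at 0 h, 8.28-fold. Igf1 had 3.86 at 8 h and 0.743 at 0 h, and Fgfr4, the hepatocyte receptor of the gut hormone FGF15, had 1.04 at 8 h and -0.0621 at 0 h. Igfals, which holds IGF in a plasma complex, had 0.783 at 8 h and 6.38 at 0 h, 8.14-fold lower at 8 h. Igfbp1, a binding protein gene known to rise early in regenerating liver, had 63.7 at 8 h and 33.7 at 0 h, under the call. Of 20 measured genes of the growth hormone and IGF axis, 14 were described, 4 higher and 2 lower. Their median of 0.53 turns to -0.12 without rescaling.

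Drug-metabolising genes lay on the lower side. Of 46 measured P450 genes and their reductase, 19 were described, 2 higher and 6 lower, with a median of -0.70. Cyp1a2, an enzyme of caffeine and drug oxidation, had 1.34 at 8 h and 9.96 at 0 h, 7.45-fold lower at 8 h. Cyp2d26 had 4.95 at 8 h and 16.2 at 0 h, and Cyp2a5 had 0.508 at 8 h and 2.60 at 0 h. Cyp2e1, which oxidises ethanol, had 31.8 at 8 h and 47.4 at 0 h and was not called, and Cyp3a13 was higher, with 2.16 at 8 h and 0.236 at 0 h. P450 genes come in clusters of close copies, so reads could be split between them. Of 45 measured conjugation and export genes, 22 were described, 1 higher and 8 lower, with a median of -0.72. Of these 8, 5 were glutathione transferases: Gstt2 had 1.62 at 8 h and 9.67 at 0 h, Gstm1 had 0.473 at 8 h and 3.39 at 0 h, and Gstp1 had 10.4 at 8 h and 28.8 at 0 h.

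Bile acid genes held 2 of the most negative changes beside many that were level. Cyp8b1, which sets the share of cholic acid, had 7.12 at 8 h and 70.1 at 0 h, 9.84-fold lower at 8 h. Nr0b2, which encodes the repressor SHP, had 2.15 at 8 h and 24.5 at 0 h, 11.4-fold lower. Cyp7a1, the rate-limiting enzyme of the main pathway, had 6.77 at 8 h and 5.64 at 0 h, and the uptake carrier gene Slc10a1 had 5.92 at 8 h and 7.27 at 0 h. Baat, which joins bile acids to taurine or glycine, was higher with 3.43 at 8 h and 0.968 at 0 h. In all, 20 of 26 measured genes were described, 2 higher and 3 lower, and the median of -0.18 was that of described genes within 0.01.

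Lipid genes were lower about as often as all described genes, of which 22.2% were lower. In fatty acid oxidation and ketogenesis, 25 of 33 measured were described, 1 higher and 6 lower, or 24.0% lower. Acaa1b, a peroxisomal thiolase gene, had 2.24 at 8 h and 30.4 at 0 h, 13.5-fold lower at 8 h, and its close copy Acaa1a had 1.83 at 8 h and 3.17 at 0 h. Fabp1, the fatty acid binding protein of liver, had 29.2 at 8 h and 68.8 at 0 h. Cpt1a, the control point of fatty acid import into mitochondria, had 4.57 at 8 h and 4.81 at 0 h and was not called. In fatty acid and triglyceride synthesis, 18 of 24 were described, 1 higher and 4 lower, or 22.2% lower, with a median of -0.43. Thrsp, a lipogenic gene of the thyroid hormone response, had 3.72 at 8 h and 21.7 at 0 h, and Srebf1, the lipogenic transcription factor, had 3.79 at 8 h and 12.9 at 0 h. Fasn, the fatty acid synthase, had 8.11 at 8 h and 9.38 at 0 h.

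Cholesterol synthesis had 5 higher and 1 lower of 19 described (of 25 measured) and a median of 0.39. Fdps, which makes farnesyl diphosphate, had 5.52 at 8 h and 1.73 at 0 h, and Sc4mol, a sterol methyl oxidase gene, had 2.25 at 8 h and 0.478 at 0 h. Insig1, which retains the sterol sensor in the ER, was the lower one, with 6.66 at 8 h and 14.6 at 0 h.

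In amino acid and nitrogen metabolism 44 of 47 measured genes were described, 12 higher and 2 lower. Nnmt, which methylates nicotinamide, had 8.54 at 8 h and -0.126 at 0 h, a change of 4.18. Mat1a, which makes the methyl donor S-adenosylmethionine, had 36.9 at 8 h and 8.00 at 0 h, 4.61-fold. Within the urea cycle, Cps1, the entry enzyme, had 10.2 at 8 h and 2.07 at 0 h, and the ornithine carrier gene Slc25a15 had 6.01 at 8 h and 1.099 at 0 h. Later enzymes of the cycle were not called: Arg1 had 27.0 at 8 h and 15.3 at 0 h, and Ass1 had 22.6 at 8 h and 22.2 at 0 h. Gpt and Prodh, an alanine transaminase gene and a proline oxidase gene, were the lower pair, with 12.98 at 8 h and 35.9 at 0 h for Gpt and 2.93 at 8 h and 9.48 at 0 h for Prodh. The median of 0.15 turns to -0.16 without rescaling, when 11 were higher and 4 lower.

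Glucose genes were called on both sides, 5 higher and 3 lower of 26 described. Fbp1, an enzyme of gluconeogenesis, had 18.6 at 8 h and 6.02 at 0 h, and Pcx, pyruvate carboxylase, had 2.50 at 8 h and 0.737 at 0 h. Both overlap another entry, whose signal cannot be told apart from theirs. Pck1, the control enzyme of the pathway, had the second highest signal of the named genes at 8 h, with 277 at 8 h and 216 at 0 h; Tat, which breaks down tyrosine, had 108 at 8 h and 55.2 at 0 h, and G6pc, which releases glucose, had 19.7 at 8 h and 10.9 at 0 h. Ppp1r3c, a glycogen-targeting subunit gene, was lower with 2.18 at 8 h and 7.60 at 0 h.

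The plasma proteins of the resting liver were mostly not called. Among albumin and carrier genes, 17 of 20 measured were described, 3 higher and 1 lower. Ahsg, which encodes the mineral-binding protein fetuin A, had 110.3 at 8 h and 55.7 at 0 h. Alb had 56.2 at 8 h and 38.5 at 0 h, Trf (transferrin) had 50.9 at 8 h and 28.7 at 0 h, and Ttr (transthyretin) had 17.6 at 8 h and 17.9 at 0 h. Apolipoprotein genes had 1 higher and 3 lower of 19 described (of 20 measured). Apoa1, the main protein of HDL, had the highest signal of all described genes at 8 h, with 280.3 at 8 h and 305 at 0 h. The lower ones were Apoe, which clears remnant lipoproteins, with 38.4 at 8 h and 156 at 0 h, 4.05-fold lower at 8 h, its neighbour Apoc1, with 17.3 at 8 h and 48.9 at 0 h, and Apoa2, another HDL protein gene, with 28.2 at 8 h and 82.9 at 0 h. Apoa4, which lies near Apoa1 and overlaps another entry, was higher with 12.9 at 8 h and 2.16 at 0 h. Apoa5, which promotes triglyceride clearance, had 213 at 8 h and 159.7 at 0 h. An entry named only by its clone, with no role in the tables used, is also among the 10 highest at 8 h, with 211 at 8 h and 40.1 at 0 h.

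The genes of both C/EBP factors differed from each other. Cebpa, measured at chr7:35904823-35906945, had 17.0 at 8 h and 93.2 at 0 h, 5.47-fold lower at 8 h. Cebpb, at chr2:167514968-167515887, had 66.2 at 8 h and 56.5 at 0 h, a change of 0.23. Over the 8 times in order, the signal of Cebpb was 56.5, 381, 66.2, 83.8, 14.2, 77.2, 40.5 and 13.9, so its high library was 3 h. Cebpa had 93.2, 18.9, 17.0, 9.02, 16.9, 11.4, 21.3 and 23.2, with 0 h above every later library. Egr1, a growth response factor gene, had 12.7 at 8 h and 19.6 at 0 h.

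Other liver transcription factor genes were 1 higher and 3 lower of 17 described. Foxa2 had 0.263 at 8 h and 5.43 at 0 h and Foxa1 1.64 at 8 h and 4.78 at 0 h, both pioneer factors of endoderm, while their relative Foxa3 had 6.49 at 8 h and 5.11 at 0 h. Hnf4a, the hepatocyte master regulator, had 11.2 at 8 h and 9.19 at 0 h. Id1, an inhibitor of helix-loop-helix factors and a BMP target, had 2.60 at 8 h and 12.9 at 0 h. Among nuclear receptors, 11 of 24 measured were described, none higher and 3 lower, with a median of -0.71. Nr1i3, the xenobiotic receptor CAR, had 6.72 at 8 h and 22.5 at 0 h, and Ppara, the fatty acid sensor, had 2.78 at 8 h and 5.18 at 0 h. Circadian clock genes, 14 described of 23, held none higher and 4 lower, with a median of -0.74. Dbp had 23.4 at 8 h and 57.6 at 0 h, Nr1d1 had 12.5 at 8 h and 32.5 at 0 h, and Usp2 had 0.512 at 8 h and 4.05 at 0 h. No clock time of either collection is used here, so hours after surgery and time of day cannot be told apart.

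The most negative change of all named genes was that of Rgs16, a regulator of G protein signalling, measured at chr1:155587979-155592594. It had 0.869 at 8 h and 49.7 at 0 h, 57.2-fold lower at 8 h, and no library after 8 h was above 1.51. Inmt, a methyltransferase gene, had 2.33 at 8 h and 41.7 at 0 h. Several others had modest signal at 0 h and none at 8 h, such as Hes6, a relative of the Notch target genes, with -0.0958 at 8 h and 6.76 at 0 h. Nkx2-6, a homeobox gene better known from embryos, had -0.0195 at 8 h and 6.14 at 0 h, and the Wnt receptor gene Fzd7 had 0.0721 at 8 h and 5.53 at 0 h. Hras1, Dcxr, Arrdc2, Olfml3, Crb3 and Fzd8 complete the 15 with Trib3, Acaa1b, Nr0b2 and Cyp8b1. All of those 6 were below 0 at 8 h, and their 0 h signal lay between 3.81 for Crb3 and 5.46 for Olfml3.

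The other times place the 8 h levels. Among higher genes, 8 h was above 3 h in 406 and below it in 284, and it was above 16 h in 468 and below it in 222. The leading acute phase genes were among those that had been higher at 3 h. Saa2 had -0.359, 254, 96.5, 7.20, 2.10, 19.7, 39.0 and 14.1 from 0 to 168 h. Lcn2 had -1.26, 326, 43.8, 29.5, 10.01, 12.3, 28.0 and 4.86. Fga was about as high at 8 h as at 3 h, with 8.59, 106, 109.7, 87.0, 55.3, 39.1, 113 and 16.3.

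**Figure D4:**
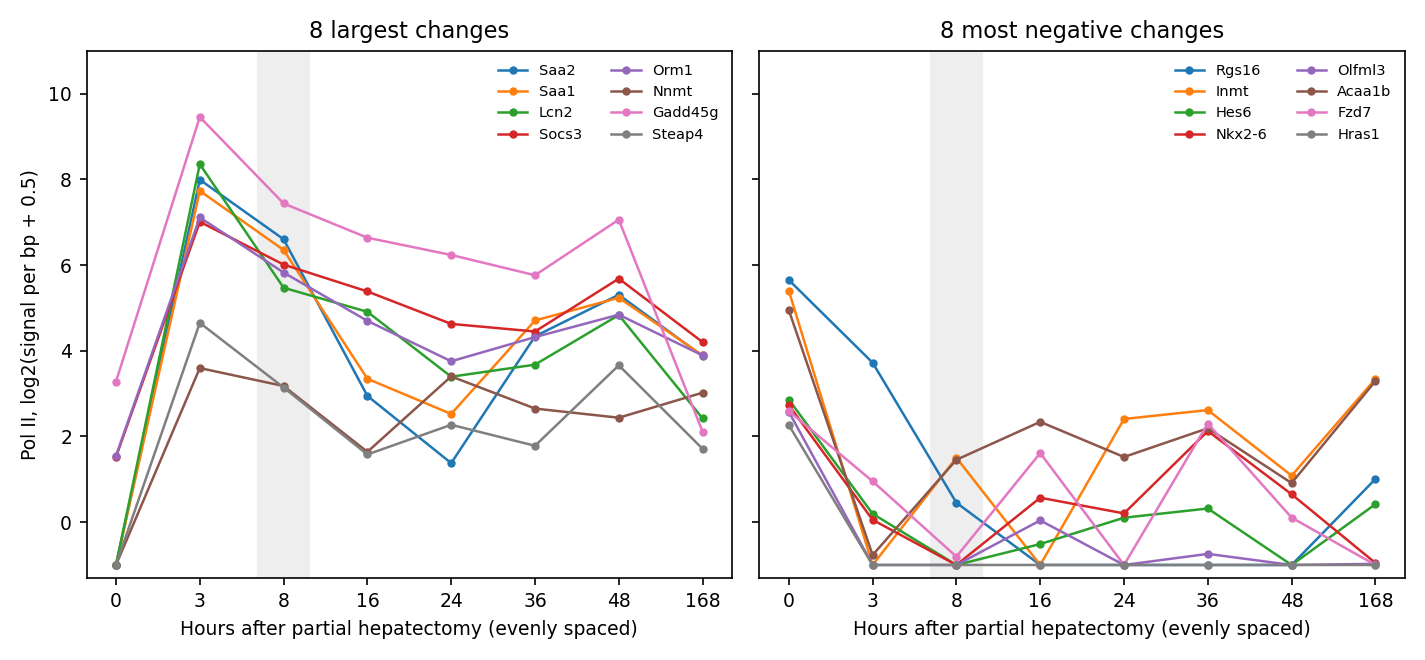
Lines give log2(signal per bp + 0.5) in the single Pol II library of each time for the 8 named genes with the largest changes at 8 h (left) and the 8 with the most negative (right); times are evenly spaced and the grey band marks 8 h. On the left all 8 genes are higher at 3 h than at 8 h, and on the right all 8 are highest at 0 h.

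C/EBP regions near gene starts were counted by class, with each list of regions cut to its 29383 highest scores. At 8 h a C/EBPalpha region lay within 1 kb of the start in 31.4% of genes higher at 8 h (95% Wilson interval 28.1% to 35.0%), 19.7% of lower genes (17.3% to 22.3%) and 26.8% of genes that were neither (25.2% to 28.5%). For C/EBPbeta at 8 h these shares were 36.5%, 23.9% and 33.6%. For C/EBPalpha at 0 h they were 29.1% of higher, 21.3% of lower and 29.3% of the other genes, so the higher genes did not exceed those called neither way. For C/EBPbeta at 0 h they were 29.9%, 19.7% and 25.3%. Higher genes exceeded lower ones by 11.8 and 12.6 percentage points for the 8 h regions of C/EBPalpha and C/EBPbeta, and by 7.85 and 10.2 points for their 0 h regions. Intervals cover counting error only, and neighbouring genes can share a region. Classes also differ in gene length, as given above, and in level. Among genes above 5 in either library, the C/EBPalpha share at 8 h was 58.7% of 104 higher genes, 35.3% of 167 lower genes and 34.6% of 437 others. For C/EBPalpha regions of 0 h the shares of these genes were similar, 53.8%, 38.9% and 35.0%. For C/EBPbeta they were 60.6%, 43.1% and 39.8% at 8 h and 51.9%, 34.7% and 35.0% at 0 h. Among genes between 0.5 and 2, the C/EBPalpha share was 24.8%, 14.8% and 24.1% at 8 h and 23.9%, 15.1% and 27.6% at 0 h.

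Of the 15 genes with the largest changes, 11 had a C/EBPalpha region of 8 h within 1 kb and 12 a C/EBPbeta region, and of the 15 with the most negative changes 5 and 6 did. For regions of 0 h the counts were nearly the same, 10 and 11 of the 15 largest and 6 and 7 of the 15 most negative. At Orm1, a C/EBPbeta region of 8 h on chromosome 4, from 63005475 to 63005500, was centred 114 bp from the start and had a score of 950, on the authors' scale for that list. At Fga the nearest C/EBPalpha region of 8 h, from 82829918 to 82829942 on chromosome 3, was 151 bp from the start, and the one of 0 h was 148 bp from it, so a region was listed there at both times. Fgg, whose promoter window holds no motif match, had a C/EBPbeta region of 8 h 362 bp from its start. That distance is from the start of the authors' mm9 entry, and the window is placed on a GRCm38.p6 start. Whether the window covers the region was not analysed. Socs3 had its nearest C/EBPalpha region of 8 h 1298 bp away. At Rgs16 the nearest C/EBPbeta region of 8 h was 821 bp from the start, and the nearest C/EBPalpha region of 8 h was 16251 bp away. Starts were taken from the authors' gene entries, and whether a region lies in an exon or intron was not analysed here.

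**Figure D5:**
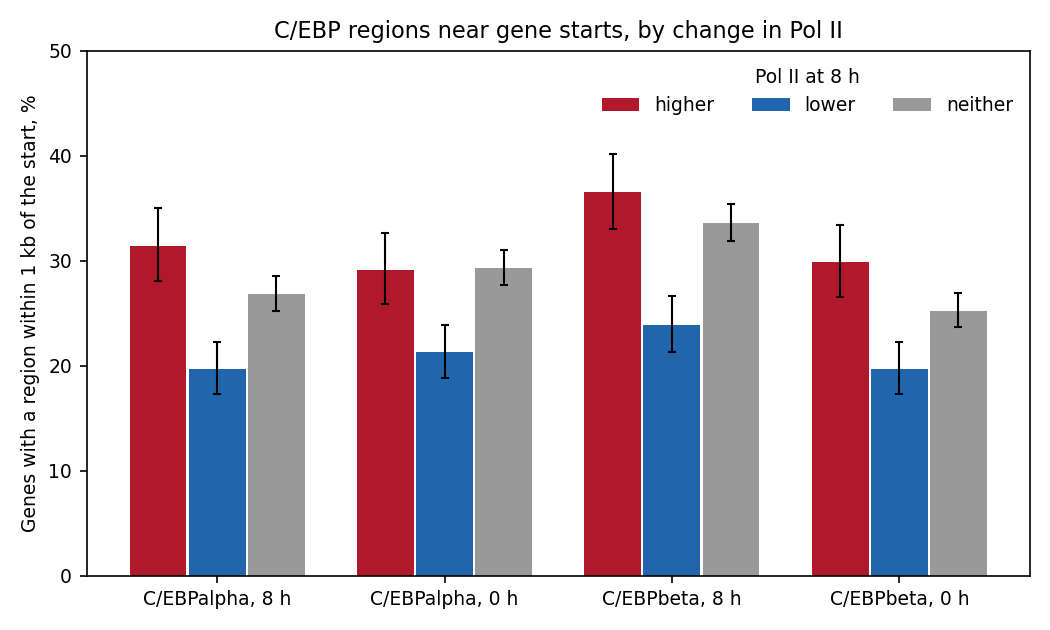
Bars give the percentage of genes with a C/EBP region within 1 kb of the start, for genes with Pol II higher, lower or neither at 8 h, in 4 region lists of equal length, with 95% Wilson intervals that cover counting error only. In each list the share is larger for higher genes than for lower genes, 31.4% and 19.7% for C/EBPalpha at 8 h.

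The tissue label was checked against cell type markers. All 12 hepatocyte markers were described, 3 of them higher and none lower, and their summed signal was 754 at 8 h and 502 at 0 h. Much of that difference came from the acute phase genes Fgb and Hpx, whose values are given above, and both are among these markers. Markers of other cell types had much smaller sums. Kupffer cell and macrophage markers had 6 of 13 described, 1 higher and 1 lower, with a summed signal of 6.69 at 8 h and 7.64 at 0 h. Neutrophil markers had 1 of 8 described and sums of 2.001 at 8 h and 6.04 at 0 h, nearly all from Camp, with 1.89 at 8 h and 5.86 at 0 h. Lymphocyte markers had 2 of 12 described and sums of 0.176 at 8 h and 1.72 at 0 h, endothelial markers 3 of 12 with sums of 4.61 at 8 h and 5.06 at 0 h, and stellate cell and fibroblast markers 2 of 12 with 3.54 at 8 h and 4.70 at 0 h. Erythroid markers had 1 of 7 described and cholangiocyte markers 0 of 6. At 8 h, 5 of 8 neutrophil and 11 of 12 lymphocyte markers were at or below 0, and at 0 h 6 and 10 were. The part of other cell types in the results above was not tested.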

How the data were processed

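Pol II ChIP-seq files of 8 and 0 h were compared, 1 library each, grouped by the antibody (AC-055-100) and time in the labels. The submitters' processing notes list MACS 1.4.1, Bowtie 0.12.7 and, as build, mm9, without saying what each was used for. The deposited Pol II score is a signed signal per gene. Its values fit a sum that begins some 500 bp into the gene and has a background taken off. No source used here gives the authors' scaling of it or says whether mice were pooled, and the mock library was not analysed here. The deposited C/EBP files give regions with a score of the authors.

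Of 31804 entries, 10871 were not used: 6603 end before they start, and others share a name, are under 500 bp or lie off the named nuclear chromosomes. Each score was divided by the measured width. Libraries were scaled by the median ratio over 1472 genes above 0.5 in all 8 Pol II files. Negative signal was taken as 0, and 0.5 was added to all values ahead of the log2, which understates changes of low genes. Scripts used Python 3.11.15, numpy 2.4.6, pandas 2.3.3 and scipy 1.17.1, and were tested on simulated data. A call is a change of 1 or more; no p-value was computed.

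The members and the 45 gene lists (1104 entries) were chosen with earlier results of these data known. Genes named are the 15 largest and 15 most negative changes among 3559 genes with a usable symbol, a body of 1 kb or more and no stronger overlapping entry. Beside them stand the 10 highest at 8 h, Cebpa, Cebpb and Egr1, and members of each list by size or role. Names were matched to RefSeq symbols (GRCm38.p6) for 92.6% of described genes, and coordinates of that build are given for promoters only. Some results for single genes of the lists are not reported here. The 10 alternatives for the counts are in the closing section.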

Additional observations from a re-analysis of the deposited data

Results flagged for a closer look

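Of the listed genes whose measured body is under 500 bp, and which are therefore left out of the counts above, 5 had more Pol II at 8 h by 1 or more on the log2 scale. Their values were outside the main measurement and above those of the 0 h library. Mt1 and Mt2 encode metallothioneins, small metal-binding proteins of the acute phase and of stress. Mt1, with a measured body of 452 bp, had a signal of 536 at 8 h and 47.4 at 0 h, and Mt2, with 278 bp, had 384 at 8 h and -2.28 at 0 h. Both exceeded every described gene at 8 h, where the highest signal was 280.3. Apcs, the serum amyloid P component, had 14.6 at 8 h and -1.205 at 0 h over 489 bp. Nfkbiz, a nuclear regulator of NF-kB, had 3.56 at 8 h and -2.13 at 0 h over 269 bp. S100a8, a neutrophil calprotectin subunit gene, had 0.809 at 8 h and 0 at 0 h over 458 bp. Among the same short genes, the immediate early gene Ier2 was lower, with 4.65 at 8 h and 68.4 at 0 h over 165 bp. A short body holds few reads, and no error of these values is known.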

How the results depend on the processing

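The 690 higher and 1001 lower genes became 154 and 235 with a pseudocount of 2 in place of 0.5, 259 and 406 among genes above 2 in either library, and 181 and 301 among genes above 0.5 in both. In the other 7 alternatives the counts were within 1.5 times: pseudocount 0.1, 3 other scalings, no filter on signal, a width of 2000 bp or more, and no overlapping genes. Their range was 543 to 967 higher and 749 to 1390 lower. Of these 7, taking away the filter on signal could not alter the counts. With 0.5 added, a change of 1 already needs a signal of at least 0.5 at 8 h or 0 h. The setting with signal above 0.5 in both libraries keeps only genes with signal on both sides. By construction, it drops the calls against a level under the limit. The setting with signal above 2 in either library keeps 1735 of the 4518 described genes, so it has fewer genes to call. A pseudocount of 2 makes changes smaller by arithmetic, above all for low signals, so it can only lower the counts. No change of a named or listed gene past 1 turned sign in any alternative. Under a pseudocount of 2, 142 of 260 such changes were under 1. Of 44 list medians, 10 changed sign without rescaling and 8 among genes above 2. Those of the acute phase, complement, ER, ATF4, ribosomal, cytoskeletal, immediate early, clock, P450, conjugation and nuclear receptor lists changed sign in no alternative. Within 10 kb in place of 1 kb, the excess of higher over lower genes with a C/EBPalpha region of 0 h was 13.1 in place of 7.85 percentage points. The other 7 C/EBP alternatives stayed within the interval of their main value. No paired analysis was possible because each time has 1 library and no result comes from a test. Unknown depth and the lack of replicates limit every value, and no library could be left out.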

Other observations

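Among 1953 pairs of described genes next to each other within 50 kb, 486 held at least 1 gene higher at 8 h, and in 79 of these, or 16.3%, both were higher. Of the 683 pairs with at least 1 lower gene, both were lower in 136, or 19.9%. Of all these pairs, 72 held 1 higher and 1 lower gene. Each percentage is of pairs with a called gene, so neither compares with the 15.3% and 22.2% of genes called. Whether neighbours were called together more often than other pairs was not tested. The fibrinogen genes and the Saa genes above are examples of neighbours that were higher together, and Apoe with Apoc1 of neighbours that were lower together.

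Protein turnover and stress genes were called on both sides. Of 36 measured proteasome subunits 17 were described, 4 higher and 3 lower. Psma7, of the catalytic core, had 2.46 at 8 h and 0.123 at 0 h. Psme1, of the interferon-induced cap, had 1.497 at 8 h and 5.56 at 0 h, and it overlaps another entry. Among heat shock genes 4 of 13 described were higher and 1 lower, with Hspa8, the constitutive HSP70, at 8.17 at 8 h and 1.76 at 0 h. Antioxidant genes had 2 higher and 2 lower of 19. Gpx1, which removes peroxides, had 22.3 at 8 h and 65.9 at 0 h, and Ftl1, the ferritin light chain that stores iron, had 46.1 at 8 h and 106 at 0 h. Oxidative phosphorylation genes were 2 higher and 2 lower of 20, with Ndufs7, a complex I subunit, at 15.8 at 8 h and 44.7 at 0 h. Medians of these lists, apart from the heat shock genes, were between 0.14 and 0.15 and changed sign without rescaling.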
